A study of Mus musculus with 2 samples.

Results

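Interleukin 33 and 5 genes of the response to it were followed by cell type in optic nerve cells of mice with Nf1 optic glioma: the ligand Il33, its receptor Il1rl1, the transcription factor Gata3, and the products Il5, Il13 and Areg. They were taken as the rows of both UMI matrices with these gene symbols, and all 6 were found among 32285 genes. The study profiled single cells of the optic nerve from Nf1-OPG mice, in which 1 Nf1 allele carries a germline neomycin cassette and the other, floxed, allele is lost through GFAP-Cre (Nf1 flox/neo; GFAP-Cre), so that cells outside the GFAP-Cre lineage of neuroglial progenitors are Nf1+/-. One library came from mice given an antibody against PD-1 (labelled anti-PDCD1) and the other from mice given an antibody against TIGIT, both of them checkpoint receptors of T and NK cells. All mice were 12 weeks old, and 10 mice were pooled into each library after a sort for live, 7-AAD-negative cells; the sort text names meningeal dura although both samples are labelled optic nerve. No library from untreated mice was analysed here, and with 1 library per treatment the antibody, the pool of mice and the library cannot be told apart, so no p-value was computed.

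IL-33 is a nuclear cytokine that stromal and glial cells hold in store and release on damage, and it is therefore called an alarmin. It is read by ST2, the product of Il1rl1, which pairs with the accessory chain Il1rap and signals through Myd88 and the IRAK kinases to NF-kappaB. Group 2 innate lymphoid cells (ILC2), mast cells, type 2 helper T cells and a tissue-resident part of the Foxp3 regulatory T cells carry ST2, and IL-5, IL-13 and the EGF receptor ligand amphiregulin (Areg) are the classical products of the first of these. In the central nervous system, oligodendrocytes are a known store of Il33.

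The libraries held 13997 cells with 85031565 UMIs (anti-PD-1) and 7915 cells with 40733655 UMIs (anti-TIGIT), and 13267 and 7503 cells were retained. The 2 barcode lists shared 163 entries. Cell types were assigned by marker gates, a cell taking the type with the largest share of its marker list detected, and 18104 of 20770 retained cells received a type. Levels are given as CPM, UMIs of a gene per 1000000 UMIs of that cell type in that library. Their intervals are exact Poisson intervals at 95%, those of shares are Clopper-Pearson intervals and those of ratios exact binomial intervals; all cover counting error only, not the spread between mice.

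Most Il33 UMIs lay in oligodendrocytes in both libraries. Il33 (ENSMUSG00000024810) lies at chr19:29925113-29960718. Of 7774 Il33 UMIs in the anti-PD-1 library, 84.2% lay in gated oligodendrocytes, and of 2669 in the anti-TIGIT library, 92.4%. The level in oligodendrocytes was 323 CPM (315 to 331; 6545 UMIs in 2895 cells) after anti-PD-1 and 172 CPM (165 to 179; 2465 UMIs in 2090 cells) after anti-TIGIT, a log2 ratio of 0.91 (0.84 to 0.97). Il33 therefore stayed below the 2-fold mark, which 3.24% of the 12550 genes tested in oligodendrocytes passed in either direction (at least 50 UMIs, on log2(CPM + 5)). An Il33 UMI was found in 41.3% of oligodendrocytes (39.5 to 43.1) in the first library and in 36.0% (34.0 to 38.1) in the second, and in 21.3% (19.7 to 22.9) against 15.5% (13.9 to 17.2) once each cell was thinned to 1000 UMIs. The same thinned share in CD8 T cells, which are not known to make Il33, was 0.195% and 0. Cells with many transcripts were found mainly after anti-PD-1: 194 of 1196 positive oligodendrocytes held at least 10 Il33 UMIs, against 24 of 753, and the highest cell held 48 against 20.

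Fibroblasts were the next source with a firm level in both libraries, at 87.8 CPM (77.7 to 98.9; 273 UMIs in 441 cells) after anti-PD-1 and 101 CPM (82.6 to 123; 102 UMIs in 203 cells) after anti-TIGIT. The intervals overlapped, and the log2 ratio was -0.21 (-0.54 to 0.14). Microglia came lower, with 37.4 CPM (34.0 to 41.0; 442 UMIs in 146 of 1851 cells) against 10.6 CPM (6.98 to 15.4; 27 UMIs in 16 of 660 cells). Their log2 ratio of 1.82 (1.26 to 2.44) passed the 2-fold mark that 1.44% of genes tested in microglia passed upward. With 27 UMIs after anti-TIGIT, Il33 reached the minimum for testing in microglia only through the anti-PD-1 library. The share of 1.44% is therefore given as a description. In the same cells plasma cell markers summed to 1042 against 306 CPM and border macrophage markers to 117 against 767 CPM, and their part in the difference was not tested. Among microglia with Y-linked transcripts alone the log2 ratio was 2.56 (1.56 to 3.79), at 57.7 against 9.79 CPM. Among Xist-positive microglia it was 1.64 (0.21 to 3.57), at 16.6 against 5.33 CPM (55 and 4 UMIs). Oligodendrocyte precursors held 34.3 CPM (135 UMIs) and 10.7 CPM (6 UMIs), a log2 ratio of 1.69 (0.53 to 3.16) past the mark that 3.85% of genes passed upward there. Il33 reached the minimum number of UMIs for testing in precursors only through the anti-PD-1 library, so that share is given as a description. In these precursors oligodendrocyte markers summed to 533 against 1469 CPM and plasma cell markers to 321 against 2078 CPM, and 53 of the 135 Il33 UMIs lay in cells with 3 or more oligodendrocyte markers; their part was not tested. The cDC1, the cross-presenting dendritic cells, held 26.5 CPM (84 UMIs) and 21.9 CPM (19 UMIs). Migratory dendritic cells held 54.0 CPM (39.0 to 73.1; 42 UMIs, 19 of them in 1 cell) and 8.65 CPM (2 UMIs). Epithelial cells held 150 CPM (82.0 to 252; 14 UMIs) in only 8 cells after anti-PD-1 and 0 in 3 cells after anti-TIGIT. Among types with over 100 cells after anti-PD-1, in the order of levels (oligodendrocytes, fibroblasts, migratory dendritic cells, microglia, precursors, cDC1), each of the last 3 overlapped its neighbour in its interval.

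Oligodendrocyte RNA free in the suspension can put Il33 UMIs into other droplets, so Il33 was set against the summed UMIs of the 10 oligodendrocyte gate markers in each type. In oligodendrocytes there were 1.68 Il33 UMIs per 100 marker UMIs after anti-PD-1 and 0.85 after anti-TIGIT. Fibroblasts held 14.1 (12.5 to 15.8) and 17.1 (13.9 to 20.7), microglia 14.7 (13.3 to 16.1) and 4.21 (2.77 to 6.12), and cDC1 14.1 (11.3 to 17.5) and 15.8 (9.53 to 24.7), all above the oligodendrocyte value. Migratory dendritic cells stood above it after anti-PD-1, at 22.1 (15.9 to 29.9), while after anti-TIGIT their interval included it, at 1.07 (0.13 to 3.86). T cells lay on both sides of it after anti-PD-1: CD8 T cells at 1.32 (0.88 to 1.91) included it, CD4 T cells without Foxp3 at 2.92 (1.78 to 4.503) were above it and regulatory T cells at 0.52 (0.21 to 1.06) were below it. After anti-TIGIT these 3 types held 2, 1 and 0 Il33 UMIs. Precursors stood above it after anti-PD-1, at 6.43 (5.40 to 7.62), while after anti-TIGIT their interval included it, at 0.73 (0.27 to 1.58).

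**Figure D1:**
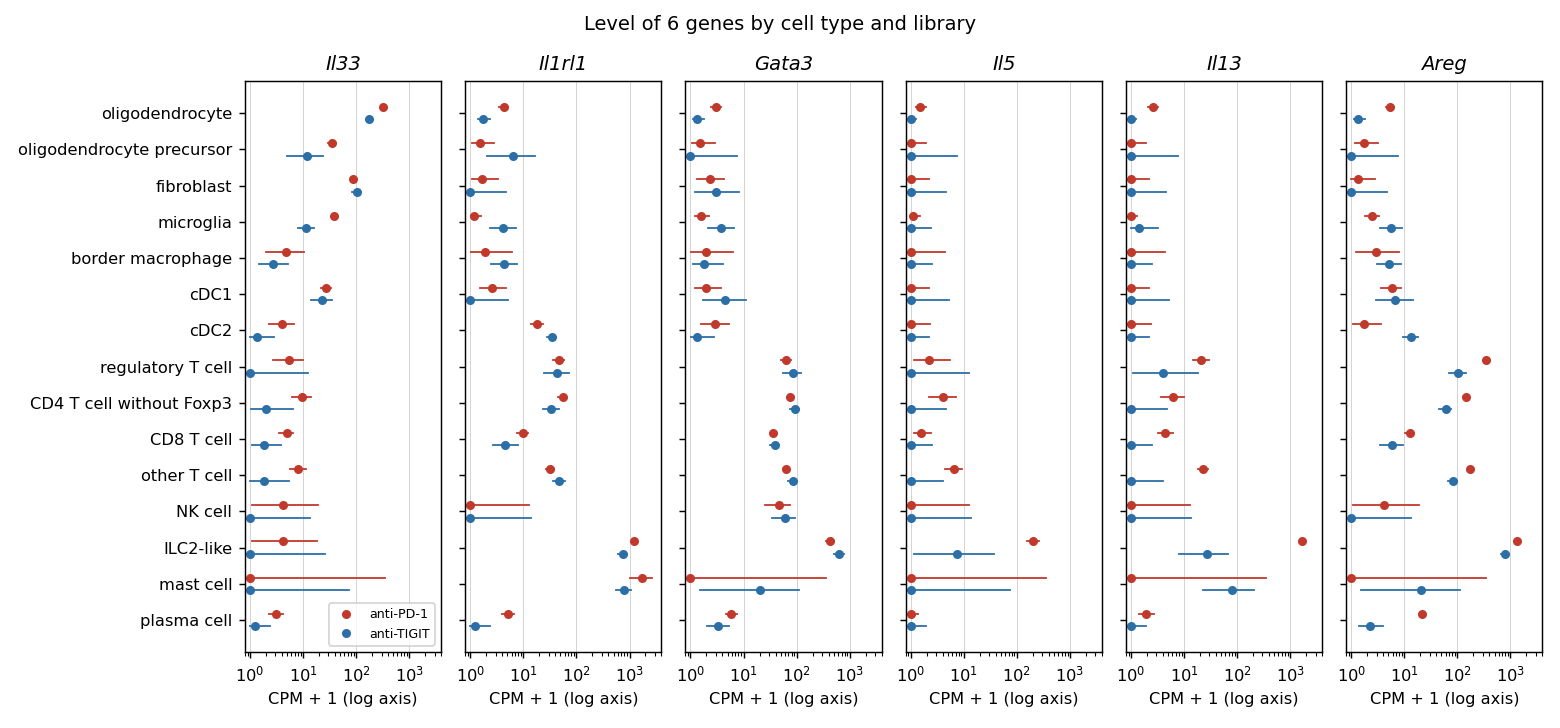
Level of each of the 6 genes (CPM + 1, log axis) in 15 cell types, anti-PD-1 in red and anti-TIGIT in blue, with 95% Poisson intervals as lines. Il33 is highest in oligodendrocytes in both libraries, Il1rl1 in ILC2-like and mast cells, and Il5 and Il13 are high in ILC2-like cells of the anti-PD-1 library alone.

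Oligodendrocytes with an Il33 UMI differed from those without it in other genes, which were ranked by the smaller of the differences in the libraries and so share a direction by choice. Among 9594 genes compared, those highest with Il33 included Ptgds, the prostaglandin D synthase (5999 against 1336 CPM after anti-PD-1, 7388 against 1036 CPM after anti-TIGIT), the metalloprotease Adamts1 (34.6 against 5.07 CPM, and 35.0 against 4.85 CPM), the tetraspanin Cd9 and the myelin protein Opalin, itself one of the gate markers. Those lowest with it were the tubulin Tubb2b (18.0 against 209 CPM, and 25.9 against 262 CPM), Dlc1, the ubiquitin hydrolase Uchl1, Art3, the homeodomain protein Hopx (139 against 743 CPM, and 152 against 748 CPM) and the annexin Anxa5. The median depth of the cells with Il33 was higher than without it after anti-PD-1 (6698 against 5207 UMIs) and lower after anti-TIGIT (5579 against 6728 UMIs).

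Oligodendrocytes were split, after the values above were seen, by a UMI of Opalin and a UMI of Serpina3n, a serine protease inhibitor. Cells with both held 533 CPM of Il33 (519 to 548; 1204 cells) after anti-PD-1 and 266 CPM (252 to 280; 743 cells) after anti-TIGIT, a log2 ratio of 1.004 (0.92 to 1.09). Cells with Opalin but no Serpina3n UMI held 354 CPM (331 to 378; 479 cells) and 413 CPM (387 to 440; 458 cells), a log2 ratio of the opposite sign, -0.22 (-0.35 to -0.09). Without Opalin the levels were low: 40.8 and 10.2 CPM with Serpina3n, and 55.8 and 25.0 CPM without it. Opalin was among the genes ranked highest with Il33 in these same cells, so the low level without Opalin restates that ranking. Detection of both genes depends on depth as well as level, the median UMIs of the first 2 classes being 7323 and 5014 after anti-PD-1 and 6321 and 5048 after anti-TIGIT, and the part of depth in the split was not tested. The ratio stood apart by the sex of the cells, as read from their transcripts: among Xist-positive oligodendrocytes Il33 stood at 285 against 216 CPM (log2 ratio 0.40, 0.28 to 0.51), and among those with Y-linked transcripts at 300.5 against 131 CPM (1.199, 1.09 to 1.31). How many mice of each sex entered a pool is not given in the sources used here.

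**Figure D2:**
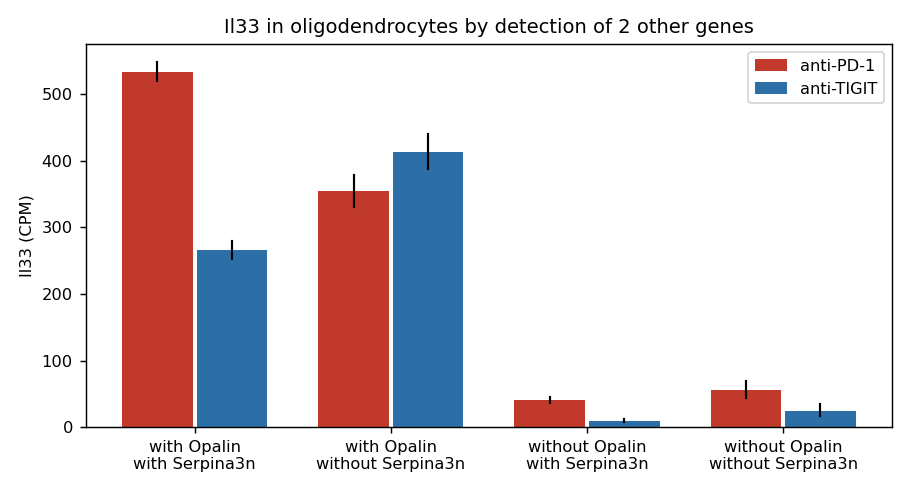
Il33 level (CPM, from 0) in oligodendrocytes split by a UMI of Opalin and of Serpina3n, anti-PD-1 in red and anti-TIGIT in blue, with 95% Poisson intervals as black lines. Il33 is high in both classes with Opalin, which was among the genes ranked highest with Il33 in the same cells. Within these classes the anti-PD-1 library is above the anti-TIGIT library with Serpina3n (533 against 266 CPM) but not without it (354 against 413 CPM).

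Il33-positive microglia, 146 and 16 cells, carried more Cxcl10 (ranked as above; 742 against 291 CPM, and 468 against 185 CPM) and Gbp2 (415 against 240 CPM, and 457 against 75.2 CPM), both interferon-induced, than microglia without an Il33 UMI. They also carried more of the stromal gene Mgp (65.4 against 36.1 CPM, and 348 against 24.4 CPM) and less of the macrophage genes Ms4a7 and Pf4. Fibroblast markers summed to 21.8 and 16.9 CPM in all microglia, and the part of fibroblast RNA was not tested. The set was added after microglia were seen to hold Il33. Microglia with Il33 were deeper, at a median of 8836 against 5327 UMIs and 4751 against 3681 UMIs, and the part of depth was not tested. The 10 oligodendrocyte markers summed to 255 and 252 CPM in all microglia, and 3 or more of them were found in 13 of the 146 (8.90%) and 0 of the 16 cells with Il33, against 4.11% and 1.398% of those without it.

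Over 15 cell types, the genes whose level followed Il33 most closely were Shroom1 (lower of both libraries' Pearson r, 0.90), Ift43 (0.89), P3h4 (0.89), Nppc (0.89) and Cbs (0.89), among 12542 genes compared. The points share libraries and depth, so the correlation is given as a description.

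The receptor gene Il1rl1 (ENSMUSG00000026069) lies at chr1:40404864-40465418 and ends 133 bases before Il18r1, the receptor chain of the related cytokine IL-18. Coordinates and promoters are those of RefSeq on GRCm38.p6, the assembly underlying the mm10 build of the deposited files. RefSeq lists 2 starts with a promoter entry; the 250 bases before each are shown, and the capitals mark matches to the motif of GATA factors, spelled here as GATA preceded by A or T and followed by A or G, on either strand. They are printed because Gata3 and Il1rl1 were detected in the same cells.

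Il1rl1, first start, chr1:40429320-40429569, plus strand: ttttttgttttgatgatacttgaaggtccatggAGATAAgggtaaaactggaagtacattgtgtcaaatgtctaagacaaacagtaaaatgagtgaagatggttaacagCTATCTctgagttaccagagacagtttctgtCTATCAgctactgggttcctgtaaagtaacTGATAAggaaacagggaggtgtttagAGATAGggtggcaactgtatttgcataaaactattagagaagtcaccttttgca
Il1rl1, second start, chr1:40439379-40439628, plus strand: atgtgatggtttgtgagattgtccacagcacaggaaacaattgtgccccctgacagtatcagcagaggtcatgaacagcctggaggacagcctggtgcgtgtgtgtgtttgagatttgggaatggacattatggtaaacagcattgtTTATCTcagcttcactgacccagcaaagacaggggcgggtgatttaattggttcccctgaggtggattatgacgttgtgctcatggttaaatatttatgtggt

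The first window holds 5 matches and the second holds 1. At least 1 match is found in 26.5% of 32851 promoter windows of this length, and at least 5 in 0.0426% (14 windows). The windows of Gata3 and Areg and both windows of Il33 hold no match. A match is a string of letters, and no binding was measured.

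Of 1035 Il1rl1 UMIs after anti-PD-1, ILC2-like cells held 37.7% and mast cells 1.74%. Of 417 after anti-TIGIT, they held 27.1% and 9.59%. Most Il1rl1 UMIs of both libraries thus lay in other cells. By level, however, Il1rl1 was highest in these rare cells. In ILC2-like cells it stood at 1223 CPM (1104 to 1350; 390 UMIs in 57 of 86 cells) after anti-PD-1 and 746 CPM (615 to 897; 113 UMIs in 40 of 61 cells) after anti-TIGIT, a log2 ratio of 0.71 (0.41 to 1.03). A similar share of these cells held a UMI, 66.3% (55.3 to 76.1) and 65.6% (52.3 to 77.3). Mast cells, 8 and 29 of them, held 1714 CPM (18 UMIs) and 792 CPM (40 UMIs) with intervals of 1016 to 2709 and 566 to 1078, a log2 ratio of 1.11 (0.22 to 1.95) past the mark that 2.16% of only 185 genes tested there passed upward. In these few cells oligodendrocyte markers summed to 857 against 336 CPM and plasma cell markers to 1143 against 356 CPM, and their part was not tested. The intervals of mast and ILC2-like cells overlapped in both libraries.

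The gate for ILC2-like cells asked for Il7r without Cd3d, Cd3e, Cd3g or Trac and for at least 3 of its markers, with at least double the marker number of any list other than T and NK cells. Rora was found in 79.1% and 65.6% of the cells, Il2ra in 70.9% and 70.5% and Calca in 38.4% and 32.8%. A remainder of 13 and 3 cells held over 20 UMIs of the class II chaperone Cd74 in 10000, 5 and 0 of them with Il1rl1. Ranked in the same way, the cells with Il1rl1 held more Gata3 (549 against 105 CPM after anti-PD-1, 867 against 176 CPM after anti-TIGIT), Dach2 (262 against 23.3 CPM, and 997 against 137 CPM) and Rnf128 (703 against 116 CPM, and 1017 against 254 CPM) than those without it, at median depths of 3677 against 2852 UMIs and 2634.5 against 1937 UMIs. They held less of Tmem176a, Tmem176b and Ifngr1 and of the class II genes Cd74, H2-Aa, H2-Ab1 and H2-Eb1.

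Among regulatory T cells, Il1rl1 did not differ between libraries beyond counting error, at 45.6 CPM (35.7 to 57.3; 28 of 331 cells) and 43.0 CPM (23.5 to 72.1; 7 of 83 cells), log2 ratio 0.08 (-0.75 to 1.02). The sign turned, with intervals that still included 0, to -0.85 when cells were thinned, to -0.93 among cells with Y-linked transcripts and to -0.18 with Leiden clusters in place of gates. A UMI was found in 8.46% and 8.43% of the cells. After anti-PD-1, 17 of 28 regulatory T cells with Il1rl1 held Gata3 against 54 of 303 without it, and 19 of 28 held Areg against 73 of 303, at median depths of 5113 and 3271 UMIs. In cells thinned to 1000 UMIs these came to 3 of 9 against 18 of 319 for Gata3 and 1 of 9 against 49 of 319 for Areg, and after anti-TIGIT only 7 cells held Il1rl1. By the same ranking, which fixes a shared direction, regulatory T cells with Il1rl1 carried more Egr1, Nr4a1, Dusp2 and Nfkbia and less Penk (5.13 against 437 CPM, and 35.8 against 477 CPM), the precursor of enkephalin, and less Xcl1 (the anti-TIGIT values with Il1rl1 rest on those 7 cells).

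CD4 T cells without Foxp3 held 53.7 CPM of Il1rl1 (44.7 to 64.0) and 32.9 CPM (22.6 to 46.1), and the remaining T cells, in none of the regulatory, CD4, CD8 and gamma-delta classes, 30.8 CPM (25.5 to 36.8) and 45.7 CPM (34.5 to 59.3). These 2 types and the regulatory T cells overlapped in part, and their order differed between the libraries, while CD8 T cells were lower at 8.71 and 3.59 CPM. Among cDC2, the dendritic cells that prime CD4 T cells, Il1rl1 was lower after anti-PD-1, at 17.3 CPM (12.7 to 22.9; 33 of 354 cells) against 33.2 CPM (27.0 to 40.3; 81 of 495 cells), log2 ratio -0.94 (-1.48 to -0.43). The share with a UMI was 9.32% (6.50 to 12.8) against 16.4% (13.2 to 19.9), and the thinned shares of 2.26% and 3.23% overlapped in their intervals. In these cDC2 the marker Cd209a was found in 56.5% against 78.2% of cells, T cell markers summed to 124 against 36.2 CPM, plasma cell markers to 876 against 447 CPM and border macrophage markers to 133 against 207 CPM, and their part in the difference was not tested. Ranked as above, the cDC2 with Il1rl1 carried more Cd209c (414 against 88.0 CPM, and 525 against 206 CPM) and Ctla4 and less Plac8 (7.74 against 388 CPM, and 9.37 against 273 CPM) and Apoe. Among the sources of Il33 the receptor gene was low: oligodendrocytes held 3.25 and 0.77 CPM, microglia 2 and 8 UMIs and fibroblasts 2 and 0 UMIs. No Il1rl1 UMI was found in 76 and 97 NK cells, which by the limit of 3 counts allows up to 3.95% and 3.09% of cells with a UMI and sets no limit on cells expressing the gene below detection.

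The genes whose level followed Il1rl1 most closely over the 15 types were Cwc25 (0.83), Ctla2a (0.83), Cdk11b (0.82), Rnf128 (0.80) and Ifrd1 (0.79).

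Gata3 (ENSMUSG00000015619; chr2:9857078-9887953), the factor that sets type 2 identity in T cells and ILC2, was highest in ILC2-like cells: 429 CPM (361 to 508) after anti-PD-1 and 634 CPM (513 to 774) after anti-TIGIT. It was the 1 gene of the 5 measured there that was lower after anti-PD-1, with a log2 ratio of -0.56 (-0.95 to -0.17). The direction turned among the 13 and 15 cells with Y-linked transcripts, at 0.40 (-0.71 to 1.55), and with Leiden clusters the ratio was -0.12 (-0.42 to 0.18). Regulatory T cells held 62.4 CPM (50.8 to 75.9) and 82.9 CPM (54.6 to 121), CD4 T cells without Foxp3 74.5 and 90.6 CPM, NK cells 44.6 and 58.3 CPM, and CD8 T cells 34.2 and 37.5 CPM. The regulatory and conventional CD4 T cells overlapped in their intervals in both libraries. Mast cells, which carry Il1rl1, held 0 and 1 Gata3 UMIs. Among the genes that followed Gata3 most closely over the cell types were Areg (r 0.93), Tnfsf11 (0.93), Tnfrsf25 (0.93) and Skap1 (0.92).

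Il13 (ENSMUSG00000020383; chr11:53631323-53634702) and Il5 (ENSMUSG00000036117; chr11:53720794-53725103) lie in the type 2 cytokine locus, separated by Rad50, with Il4 (chr11:53612460-53618665) on the far side of Il13. The 250 bases before each start are shown with the same motifs in capitals, since it was in these 2 genes that the libraries differed most.

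Il13, chr11:53634703-53634952, minus strand: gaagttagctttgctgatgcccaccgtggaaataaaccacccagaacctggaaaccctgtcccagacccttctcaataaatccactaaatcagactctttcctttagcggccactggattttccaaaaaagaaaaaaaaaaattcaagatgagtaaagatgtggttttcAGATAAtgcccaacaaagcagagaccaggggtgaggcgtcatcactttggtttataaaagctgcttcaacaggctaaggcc
Il5, chr11:53720544-53720793, plus strand: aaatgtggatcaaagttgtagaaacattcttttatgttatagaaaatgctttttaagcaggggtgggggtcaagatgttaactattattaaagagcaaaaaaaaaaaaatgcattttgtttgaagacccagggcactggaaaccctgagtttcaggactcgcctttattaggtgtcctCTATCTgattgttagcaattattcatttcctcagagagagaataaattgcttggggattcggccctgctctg

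Each window holds 1 match, at positions -81 to -76 from the start in Il13 and, on the opposite strand, at -72 to -67 in Il5. At least 1 match is found in 26.5% of all promoter windows searched, and no binding was measured.

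Il5 and Il13 came almost wholly from the anti-PD-1 library. It held 759 Il13 UMIs in 60 cells and 114 Il5 UMIs in 43 cells, against 10 UMIs in 7 cells and 1 UMI in 1 cell in the anti-TIGIT library. In ILC2-like cells Il13 stood at 1686 CPM (1547 to 1835; 538 UMIs in 30 of 86 cells) and 26.4 CPM (7.19 to 67.6; 4 UMIs in 3 of 61 cells), a log2 ratio of 5.997 (4.63 to 7.88). One cell held 168 of the 538 UMIs (31.2%); without the top cell of each library the log2 ratio was 6.45. Il5 there gave 201 CPM (154 to 256; 64 UMIs in 21 cells) and 6.60 CPM (0.167 to 36.8; 1 UMI), a log2 ratio of 4.93 with an interval of 2.40 to 10.25. Thinned to 1000 UMIs, 24.4% (15.6 to 35.1) and 3.45% (0.420 to 11.9) of the cells held Il13. Of the 5 genes tested in these cells, Il5 and Il13 were at least 2-fold higher, against 7.77% of all 1326 genes tested. The median log2 difference of the 5 was 0.72 against 0.05 for all genes. Il5 (64 and 1 UMIs) and Il13 (538 and 4 UMIs) reached the minimum number of UMIs for testing only through the anti-PD-1 library, where they were high. The count and the median are therefore given as a description. In these cells T cell markers summed to 391.8 and 521 CPM, plasma cell markers to 367 and 224 CPM and oligodendrocyte markers to 285 and 350 CPM, and their part in the difference was not tested.

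**Figure D3:**
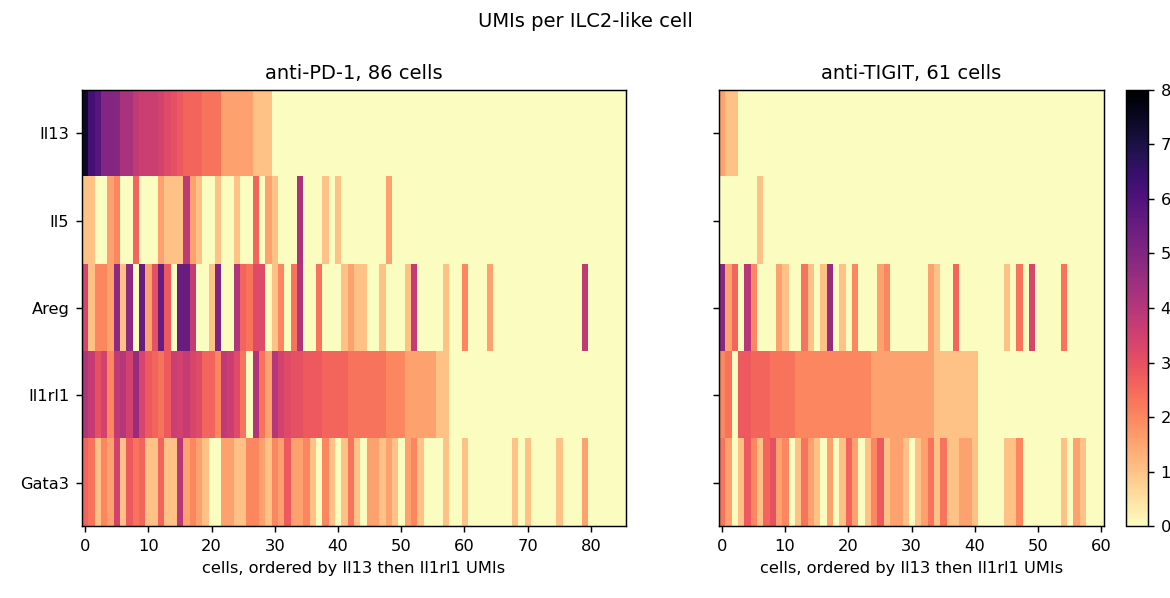
Each column is 1 ILC2-like cell, ordered within its library by Il13 and then Il1rl1 UMIs, and the colour gives log2(UMIs + 1) of the gene in the row. In the anti-PD-1 library 30 of 86 cells hold Il13 and most of them also hold Il1rl1 and Gata3; in the anti-TIGIT library 3 of 61 cells hold Il13 while 40 hold Il1rl1.

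Most cells with these cytokines also held a UMI of the receptor gene. After anti-PD-1, 72 cells of any type held Il5 or Il13 and 31 held both; 62 of the 72 held Il1rl1, 61 Gata3, 65 Il7r and 46 Areg, and 5 held Foxp3. Cd3 transcripts were absent in 43 of them and present in 29. After anti-TIGIT, 8 cells held Il5 or Il13 and 0 held both, 6 of them with Il1rl1 and 7 without Cd3. Within ILC2-like cells, Il13 was found in 29 of 57 cells with Il1rl1 and in 1 of 29 without it after anti-PD-1, against 2 of 40 and 1 of 21 after anti-TIGIT. In the remaining T cells after anti-PD-1, 7 of 892 cells held 84 Il13 UMIs, 48 of them in 1 cell. After anti-TIGIT, 0 of 412 cells held any. Taking 3 UMIs for the 0 makes the level at least 8.88-fold higher, past the mark that 2.47% of genes passed upward there. Il13 reached the minimum number of UMIs for testing there only through the anti-PD-1 library, so that share is given as a description. Mast cells held 0 and 4 Il13 UMIs.

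Amphiregulin (Areg, ENSMUSG00000029378; chr5:91139599-91148432), which acts on the EGF receptor and is made by ILC2 and tissue regulatory T cells in repair, was the most widely found of the 3 products. In ILC2-like cells Areg stood at 1298 CPM (1176 to 1429; 39 of 86 cells) and 785 CPM (651 to 940; 22 of 61 cells), log2 ratio 0.72 (0.43 to 1.03). It was 3.50 (2.52 to 4.67) among the 13 and 15 cells with Y-linked transcripts and 0.61 (-0.03 to 1.30) among the 38 and 13 Xist-positive cells. Among regulatory T cells the difference was larger, 339 CPM (311 to 369; 543 UMIs in 92 of 331 cells) against 101 CPM (69.8 to 142; 33 UMIs in 12 of 83 cells), log2 ratio 1.74 (1.23 to 2.30). Areg was the 1 of 3 tested members past the 2-fold mark, which 3.67% of genes tested there passed upward. It reached the minimum number of UMIs for testing there only through the anti-PD-1 library, where it was high. The count and that share are therefore given as a description. The shares with a UMI were 27.8% (23.0 to 33.0) and 14.5% (7.70 to 23.9), and 15.2% (11.5 to 19.6) and 7.41% (2.77 to 15.4) after thinning, with overlapping intervals; in thinned oligodendrocytes, which should lack Areg, they were 0.191% and 0.0505%. CD4 T cells without Foxp3, at 142 against 58.7 CPM (1.27, 0.87 to 1.70; 2.47% of genes passed the mark upward), and the remaining T cells, at 168 against 79.9 CPM (1.07, 0.76 to 1.39), were higher in the same library. CD8 T cells were also higher there, at 11.8 against 4.78 CPM (1.30, 0.42 to 2.31), from 85 and 12 UMIs. On log2(CPM + 5) Areg did not pass the 2-fold mark in CD8 T cells. In cDC2 Areg went the other way, at 0.73 CPM (0.09 to 2.65; 2 UMIs) against 12.2 CPM (8.56 to 16.8; 37 UMIs, 15 of them in 1 cell).

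After anti-PD-1, regulatory T cells held more transcripts of other types: the 6 plasma cell markers summed to 3725 CPM against 203 CPM and the 10 oligodendrocyte markers to 846 against 190 CPM. Their part in the Areg difference was not tested. Plasma cells themselves held 20.6 and 1.24 CPM of Areg, with 83 of 203 UMIs in 1 cell after anti-PD-1. Of genes tested there, 4.08% passed the mark upward. Areg reached the minimum number of UMIs for testing in plasma cells only through the anti-PD-1 library, so that share is given as a description. Oligodendrocytes held 4.39 and 0.35 CPM of Areg. The libraries also differed in the sex of these cells, 33 regulatory T cells being Xist-positive and 108 carrying Y-linked transcripts after anti-PD-1, against 1 and 40 after anti-TIGIT; among the latter kind alone the log2 ratio of Areg was 2.33. The genes that followed Areg most closely over the cell types were Gata3 (0.93), Tnfsf11 (0.91), Tnfrsf25 (0.89), Nrip1 (0.88) and Rln3 (0.87).

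**Figure D4:**
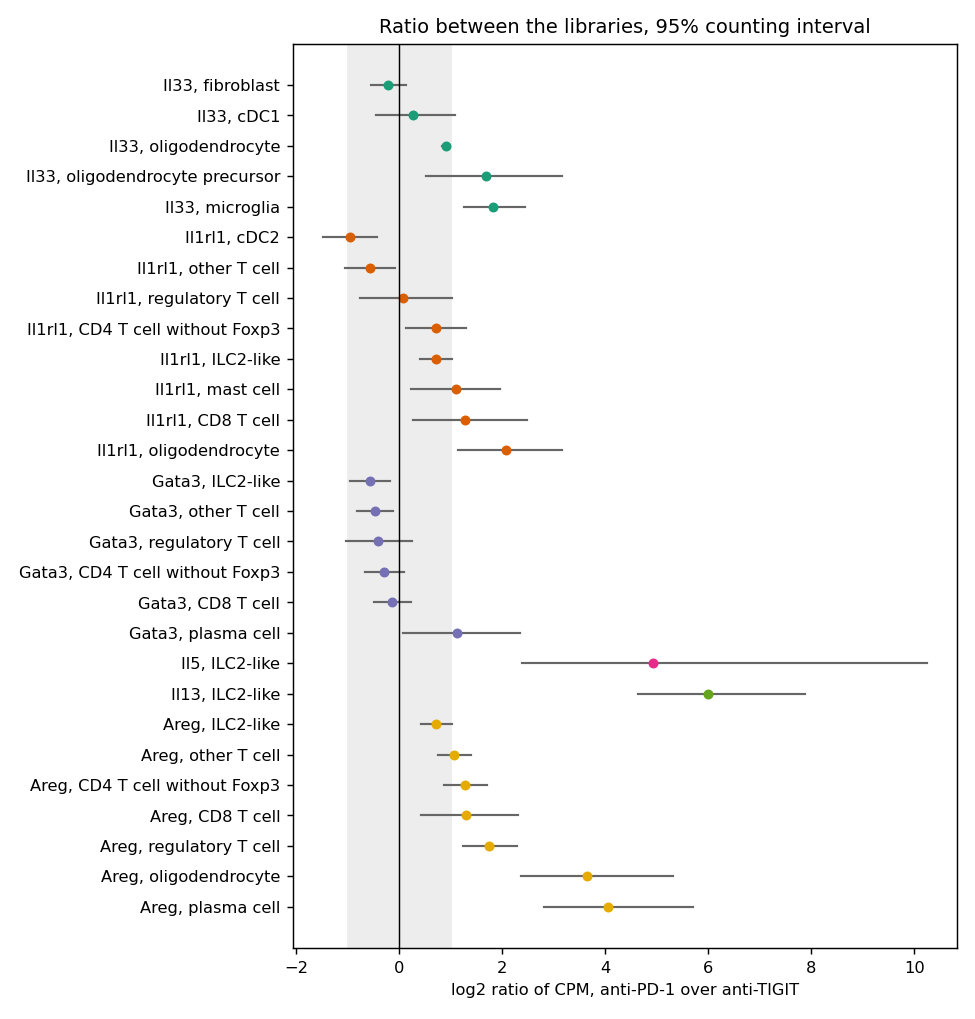
Log2 ratio of CPM, anti-PD-1 over anti-TIGIT, for each member and cell type with at least 50 UMIs in both libraries together and a UMI in each, with 95% counting intervals as lines and the band within 2-fold in grey. Il5 and Il13 in ILC2-like cells stand far to the right (4.93 and 5.997), Gata3 lies left of or across 0 in the lymphoid types other than plasma cells, and Areg lies to the right in the 7 types shown, which do not include cDC2.

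The receivers were next read for the pathway around the members, in 6 lists. In ILC2-like cells, 2 of 10 genes of the receptor complex and its signalling were tested and neither passed the 2-fold mark (median log2 difference -0.30 against 0.05 for all genes); Nfkb1 stood at 1433 and 1967 CPM. Il7r, the receptor chain for IL-7 and for the alarmin TSLP, stood at 1342 and 1465 CPM, and Il17rb, a chain of the IL-25 receptor and a marker of the gate, at 201 and 66.0 CPM (log2 ratio 1.60, 0.63 to 2.73). Il4, the third cytokine of the locus, was higher after anti-PD-1 at 201 against 39.6 CPM (64 and 6 UMIs; 2.34, 1.14 to 3.84), as were the arginase gene Arg1 (649 against 52.8 CPM; 3.62, 2.61 to 4.85), found in 41 of 86 and 6 of 61 cells, and the transcription factor Batf (210 against 46.2 CPM; 2.18, 1.06 to 3.55). These 3 and Il17rb were the genes outside the members that passed, of 9 tested over the 6 lists. Of all genes tested there, 7.77% passed upward. Each of these genes, like Il4 with 64 and 6 UMIs, reached 50 UMIs only through the anti-PD-1 library, where it was high. The count is therefore given as a description. The factor Rora, at 683 and 779 CPM, was among those that did not pass. In regulatory T cells 0 of the 23 tested genes of these lists passed in either direction, against 5.5% of all genes, with a median log2 difference of 0.02 against -0.07. Among them the TSLP receptor Crlf2 stood at 157 and 147 CPM and Stat5b at 130 and 126 CPM.

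In oligodendrocytes, 0 of 26 tested list genes passed in either direction, against 3.24% of all genes tested there. Their median log2 difference was 0.28 against -0.02 for all genes. The IL-33 receptor's accessory chain Il1rap stood at 214 CPM (208 to 221) and 246 CPM (238 to 255) there. Egfr, the receptor for amphiregulin, was highest in fibroblasts, at 210 CPM (195 to 227) and 303 CPM (270 to 339). Among microglia, 3 of the 5 genes that myeloid cells switch on in type 2 responses were tested. All 3 were at least 2-fold lower after anti-PD-1, against 2.27% of genes tested there. These were Retnla (2.62 and 99.98 CPM), Mgl2 (12.0 and 69.4 CPM) and Clec10a (2.71 and 12.9 CPM), with a median log2 difference of -2.13 against -0.17 for all genes. Retnla reached the minimum number of UMIs for testing only through the anti-TIGIT library, where it was high. The count and the median are therefore given as a description, and these values were named after they were seen. Border macrophage markers in the same cells summed to 117 against 767 CPM, and their part in this was not tested. Ccl17, a chemokine for type 2 T cells, stood at 488 against 165 CPM in cDC2 (log2 ratio 1.56, 1.41 to 1.71), and was the 1 list gene there past the mark that 1.08% of genes passed upward.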

How the data were processed

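Single-cell RNA was measured in 2 libraries with the 10x 5′ kit, per the labels' protocols. The deposited matrices hold raw UMI counts per gene and cell, made by the authors with Cell Ranger 8.0.0 (anti-PD-1) and 8.0.1 (anti-TIGIT) per the file headers; the submitters' processing notes name mm10, Seurat 5.0.3 and R 4.1.1. Whether introns were counted is not given in the sources used here.

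Barcodes under 200 genes or over 10% mitochondrial UMIs were dropped, and doublets called per library by Scrublet in scanpy 1.11.5 (expected rate 0.8% per 1000 cells) were left out, 584 (4.22%) and 147 (1.92%) cells. Marker gates used 32 lists and at least 3 distinct markers. The margin of the ILC2-like gate was added after class II genes were seen in its cells; it was chosen from 3 margins while their counts of cells with Il1rl1, Gata3 and Il13 were in view, and the values under the others are given among the alternatives. The members and lists were chosen with earlier results of these data known. UMIs were summed per type and library, and a difference was called past 2-fold on log2(CPM + 5) where both libraries together held at least 50 UMIs. Named were the members, at most 4 genes per pathway list by level (at least 20 UMIs in each library), the 5 genes most like a member and up to 8 that went with Il1rl1 in regulatory T and ILC2-like cells and with Il33 in oligodendrocytes. The sets for microglia and cDC2, the values of Il4, Il17rb, Arg1, Batf and the myeloid genes outside that rule, and the split of oligodendrocytes were chosen after their values were seen. Il5 and Il13 were left out of the likeness measure because the anti-TIGIT library held fewer than 50 UMIs of each. Some genes that these rules name are not reported here. The code was tested on simulated data. Both files held 0 columns of other samples.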

Additional observations from a re-analysis of the deposited data

How the results depend on the processing

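Of 147 log2 ratios recomputed under other settings, 131 stayed within the counting interval of the reported value, 14 moved outside it and 2 reversed, a term kept for ratios whose reported interval excluded 0; Il1rl1 in regulatory T cells (0.08), whose interval included 0, changed sign in 3 settings (-0.85, -0.93 and -0.18). Il33 in oligodendrocytes (0.91) gave 0.70 with each cell thinned to 1000 UMIs, 0.81 with Leiden clusters in place of gates, 0.40 in Xist-positive cells and 1.199 where Y-linked transcripts were found; in the classes with both Opalin and Serpina3n, Opalin alone, Serpina3n alone and neither it gave 1.004, -0.22, 1.998 and 1.16. With Y-linked transcripts, Il33 in microglia gave 2.56, Il1rl1 in regulatory T cells -0.93, Areg there 2.33, and in ILC2-like cells Gata3 reversed to 0.40 and Areg gave 3.50 from 13 and 15 cells. Il1rl1 in regulatory T cells gave -0.85 when thinned (9 and 4 UMIs), Gata3 in ILC2-like cells -0.12 with clusters, and Areg there 1.08 without the cell with the most Il13 of each library. The causes were not tested. The 3 other margins of the ILC2-like gate, the removal of that cell and of shared barcodes, and the split of oligodendrocytes were chosen after seeing the data. Il5 in ILC2-like cells ranged from 4.65 to 5.64 and Il13 from 4.84 to 6.45 over the settings that gave a value; a library at 0 UMIs gave none.

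Shares move with depth by construction. Il33 was found in 12.9% and 9.33% of oligodendrocytes (anti-PD-1, anti-TIGIT) at 500 UMIs, 33.4% and 24.6% at 2000 and 41.3% and 36.0% unthinned. Areg in regulatory T cells after anti-PD-1 was found in 9.06%, 22.8% and 27.8%, and Il1rl1 in ILC2-like cells in 32.6%, 66.7% and 66.3%, and after anti-TIGIT in 71.8% at 2000 UMIs and 65.6% unthinned. The 406 genes past 2-fold in oligodendrocytes became 930 with a pseudocount of 1 CPM and 160 with 20 CPM. The 304 in regulatory T cells became 156 with 20 CPM, 1282 with at least 1 UMI and 62 with at least 200 UMIs, and the 201 in ILC2-like cells 3982 and 25 under the same 2 filters. No paired analysis was possible because each treatment has 1 library. The single library per treatment is a limit that counting intervals do not cover, and the 61 ILC2-like cells and 1 Il5 UMI of the anti-TIGIT library limit the precision of the ILC2-like ratios.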
